A study of Mus musculus with 18 samples.

Results

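The glycolysis and hypoxia genes described here are 34 genes picked by gene symbol: the enzymes that take glucose to lactate, the transporters at either end, the regulators of that flow, a set of genes commonly induced when oxygen is short, and the 2 oxygen-sensing transcription factor subunits with 2 of the enzymes that control them. The 34 symbols matched 35 gene entries of the 54532 in the deposited tables, because Aldoa is listed under 2 identifiers, and all 35 passed the filter on low counts in every fit. Their mRNA was measured by bulk RNA-seq in 18 libraries from C57BL/6 mice of 2 knockout lines. In the colorectal tumours, induced with azoxymethane (a carcinogen) and dextran sulphate sodium (DSS, which injures the colon lining), there were 2 libraries each of Il1f9-/-, Il1f9+/+, Il1f5-/- and Il1f5+/+ mice. In the colitis colons, taken after 5 days of 2.5% DSS and 2 days on plain water, there were 2 libraries of Il1f9-/-, 2 of Il1f9+/+, 3 of Il1f5-/- and 3 of Il1f5+/+ mice, each from a 0.5 cm piece of distal colon close to the anus. DSS exposure was shared by all 8 groups, untreated colon was not analysed here, and the doses and ages behind the tumours are not given in the sources used here. Il1f5 and Il1f9 encode a receptor antagonist and a receptor agonist of the interleukin-36 family. The mutant lines are written below as KO and their partners as WT.

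Glycolysis splits glucose into pyruvate and yields ATP without oxygen. Lactate dehydrogenase then turns pyruvate into lactate, which leaves the cell through monocarboxylate transporters. When oxygen falls, prolyl hydroxylases of the Egln family stop marking the alpha subunits Hif1a and Epas1 for destruction, and the stabilised subunits pair with Arnt and bind short DNA motifs beside genes of glucose use, vessel growth, mitophagy and collagen modification. The colon lining lives next to an oxygen-poor lumen, and tumours are known for high glucose uptake and for poorly supplied regions.

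Hypoxia-inducible factors bind a short core motif, ACGTG or GCGTG, near the genes they induce. The 250 bases before the start of 5 of these genes follow, from RefSeq on build GRCm38.p6, written 5′ to 3′ on each gene's own strand, with each ACGTG or GCGTG on either strand in capitals (on the opposite strand they read CACGT and CACGC). Bnip3, Slc16a3, Egln3 and Slc2a1 are shown because they had the 4 smallest p-values between the WT tumours of the lines, and Ankrd37 because it had the largest fold change among the called members between the labelled Il1f5 genotypes in colitis.
Bnip3, chr7:138909507-138909756, minus strand: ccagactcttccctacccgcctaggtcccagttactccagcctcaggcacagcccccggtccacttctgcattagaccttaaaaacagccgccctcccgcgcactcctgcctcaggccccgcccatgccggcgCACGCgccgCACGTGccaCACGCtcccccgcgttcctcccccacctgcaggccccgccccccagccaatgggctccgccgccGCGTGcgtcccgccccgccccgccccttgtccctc
Slc16a3, chr11:120948817-120949066, plus strand: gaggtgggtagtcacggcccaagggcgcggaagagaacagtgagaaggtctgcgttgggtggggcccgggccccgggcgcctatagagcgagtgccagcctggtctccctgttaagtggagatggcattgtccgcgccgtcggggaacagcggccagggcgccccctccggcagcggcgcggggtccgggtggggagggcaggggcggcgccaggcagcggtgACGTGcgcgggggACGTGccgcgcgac
Egln3, chr12:54203875-54204124, minus strand: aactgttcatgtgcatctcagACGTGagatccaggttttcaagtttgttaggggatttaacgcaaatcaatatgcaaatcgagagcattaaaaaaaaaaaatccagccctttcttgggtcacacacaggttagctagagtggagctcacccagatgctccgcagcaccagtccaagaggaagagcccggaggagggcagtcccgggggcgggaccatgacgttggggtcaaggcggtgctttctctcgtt
Slc2a1, chr4:119108495-119108744, plus strand: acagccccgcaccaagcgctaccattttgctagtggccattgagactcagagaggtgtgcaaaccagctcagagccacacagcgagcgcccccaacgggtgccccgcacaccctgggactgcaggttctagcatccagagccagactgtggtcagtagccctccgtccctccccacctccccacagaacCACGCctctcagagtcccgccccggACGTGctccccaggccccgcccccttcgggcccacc
Ankrd37, chr8:45999851-46000100, minus strand: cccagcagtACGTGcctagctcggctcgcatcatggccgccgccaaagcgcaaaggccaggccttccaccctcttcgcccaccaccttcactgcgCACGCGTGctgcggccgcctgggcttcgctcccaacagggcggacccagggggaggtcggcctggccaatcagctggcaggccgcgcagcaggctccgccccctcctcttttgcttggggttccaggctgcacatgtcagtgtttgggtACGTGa
In Bnip3 a pair of these matches overlap in CACGTG, and in Ankrd37 a pair overlap in CACGCGTG. The Bnip3 stretch held 5 matches, the Ankrd37 stretch 4, the Slc16a3 and Slc2a1 stretches 2 each and the Egln3 stretch 1. RefSeq promoters were found for 31 of the 34 symbols (Ero1l under its newer symbol Ero1a); Bnip3l, Epas1 and Ndrg1 were not matched. In windows of 300 bases (250 before and 50 after the start), 37 of the 45 member promoters held ACGTG or GCGTG on either strand (82.2%), and 43.8% of all 32851 promoters of that length did. By gene the shares were 93.5% of the 31 members and 46.7% of the 27025 genes with a promoter. The median GC content was 62.3% in the member promoters and 52.7% in all promoters; its part in the motif shares was not tested. A match is a description of the letters and not a bound site.

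The libraries held 16621611 to 23776174 counted reads, of which the members took 0.756% to 1.43% and mitochondrial genes 2.01% to 3.56%. The targeted genes were checked first. Il1f9 had 2 and 0 counts in Il1f9 KO tumours and 1652 and 752 in Il1f9 WT tumours, and 9 and 1 counts in Il1f9 KO colitis libraries against 232 and 90 in Il1f9 WT colitis libraries. Il1f5 went against its label: it had 211 and 102 counts in the tumours labelled Il1f5 KO and 36, 43 and 45 counts in the colitis libraries labelled Il1f5 KO. It was at 0 in every other library, those labelled Il1f5 WT included. The libraries of the Il1f9 line, KO and WT, were at 0 too, so a 0 was not particular to those labelled Il1f5 WT. Where the Il1f5 reads in the libraries labelled KO come from was not tested. The groups of the Il1f5 line are therefore called by their label throughout, and no direction below can be read as the effect of losing Il1f5. Levels are given as CPM, which are counts scaled to a common library size with TMM factors over the 18 libraries, and each ± on a log2 fold change is its standard error. A member was called where edgeR's quasi-likelihood F test gave a Benjamini-Hochberg adjusted p under 0.05 over all genes tested. The labels do not say whether libraries of a group came from separate mice, so the p-values measure the spread between these libraries. Overlap is described in the libraries that gave the calls, so its absence is no further support. Its share over all genes is not given here, nor is that of genes under an unadjusted p.

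The reads of several members are less certain than their counts. The kit does not mark strand, and part of a gene's sequence can also occur in other annotated genes: 53.9% of the 50-base words of Pgk1, 47.2% of Bnip3, 36.2% of Pgam1, 26.0% of Eno1, 25.8% of Pkm and 25.1% of Gapdh did so. Gapdh, the glyceraldehyde phosphate dehydrogenase of glycolysis, shares words with 223 other genes and ran from 15.1 to 295 CPM with no order by group, and it passed no test. Exons of other genes on the opposite strand cover 26.4% of the exon bases of Ankrd37 and 22.3% of those of Bnip3, so those counts could include reads of a neighbour. The other Aldoa identifier stayed near 1 CPM or below (0.0613 to 1.85 CPM) and also passed no test.

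Per gene length, the later enzymes of the pathway and Aldoa were the most abundant members in either tissue. By the authors' FPKM (reads scaled by exon length and library size, computed in 3 tables of separate sets of libraries), Ldha, the lactate dehydrogenase subunit that favours lactate, averaged 470.2 ± 133 FPKM in tumours and 412 ± 66.4 FPKM in colitis colon (SD, n = 8 and 10). Pkm, pyruvate kinase, followed at 425 ± 122 FPKM in tumours and 239.7 ± 20.6 FPKM in colitis, and Aldoa, the main aldolase, at 375 ± 82.2 and 361 ± 39.1 FPKM. These neighbours in the order do not differ beyond their spread in tumours, where the 3 ranges overlap; in colitis Aldoa stood above Pkm. Next came Tpi1 (triose phosphate isomerase), Pgk1 (phosphoglycerate kinase) and Eno1 (enolase), at 279 ± 63.0, 313 ± 84.1 and 209 ± 44.1 FPKM in tumours and 208 ± 31.5, 195 ± 36.2 and 129.8 ± 14.3 FPKM in colitis. The low end held P4ha2, a collagen prolyl hydroxylase subunit, at 3.38 ± 1.07 FPKM in tumours and 2.11 ± 0.532 FPKM in colitis, and Pfkm, the muscle form of phosphofructokinase, at 1.79 ± 0.629 and 5.08 ± 1.48 FPKM.

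Where genes encode alternative forms of 1 step, the shares within a library can be compared without a common scale. Hif1a made up 82.4 ± 8.33% of the summed Hif1a and Epas1 FPKM in tumours and 46.1 ± 7.71% in colitis (SD, n = 8 and 10), with ranges of 72.6 to 92.4% and 35.8 to 57.3% that do not overlap. Hk2, the inducible hexokinase, made up 82.4 ± 4.20% of Hk1 and Hk2 in tumours and 73.0 ± 6.60% in colitis, with overlapping ranges. Of the phosphofructokinases, the liver form Pfkl took 65.9 ± 7.11% in tumours and 59.0 ± 3.57% in colitis, the platelet form Pfkp 30.0 ± 6.85% and 33.7 ± 4.04%, and Pfkm 4.10 ± 1.33% and 7.30 ± 2.06%. Aldoa made up 96.7 ± 0.941% of the aldolases in tumours and 99.0 ± 0.183% in colitis, without overlap, and Slc2a1 made up 96.8 ± 1.21% of Slc2a1 and Slc2a3, the transporter of neurons and white blood cells, in tumours and 97.8 ± 0.979% in colitis.

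**Figure D1:**
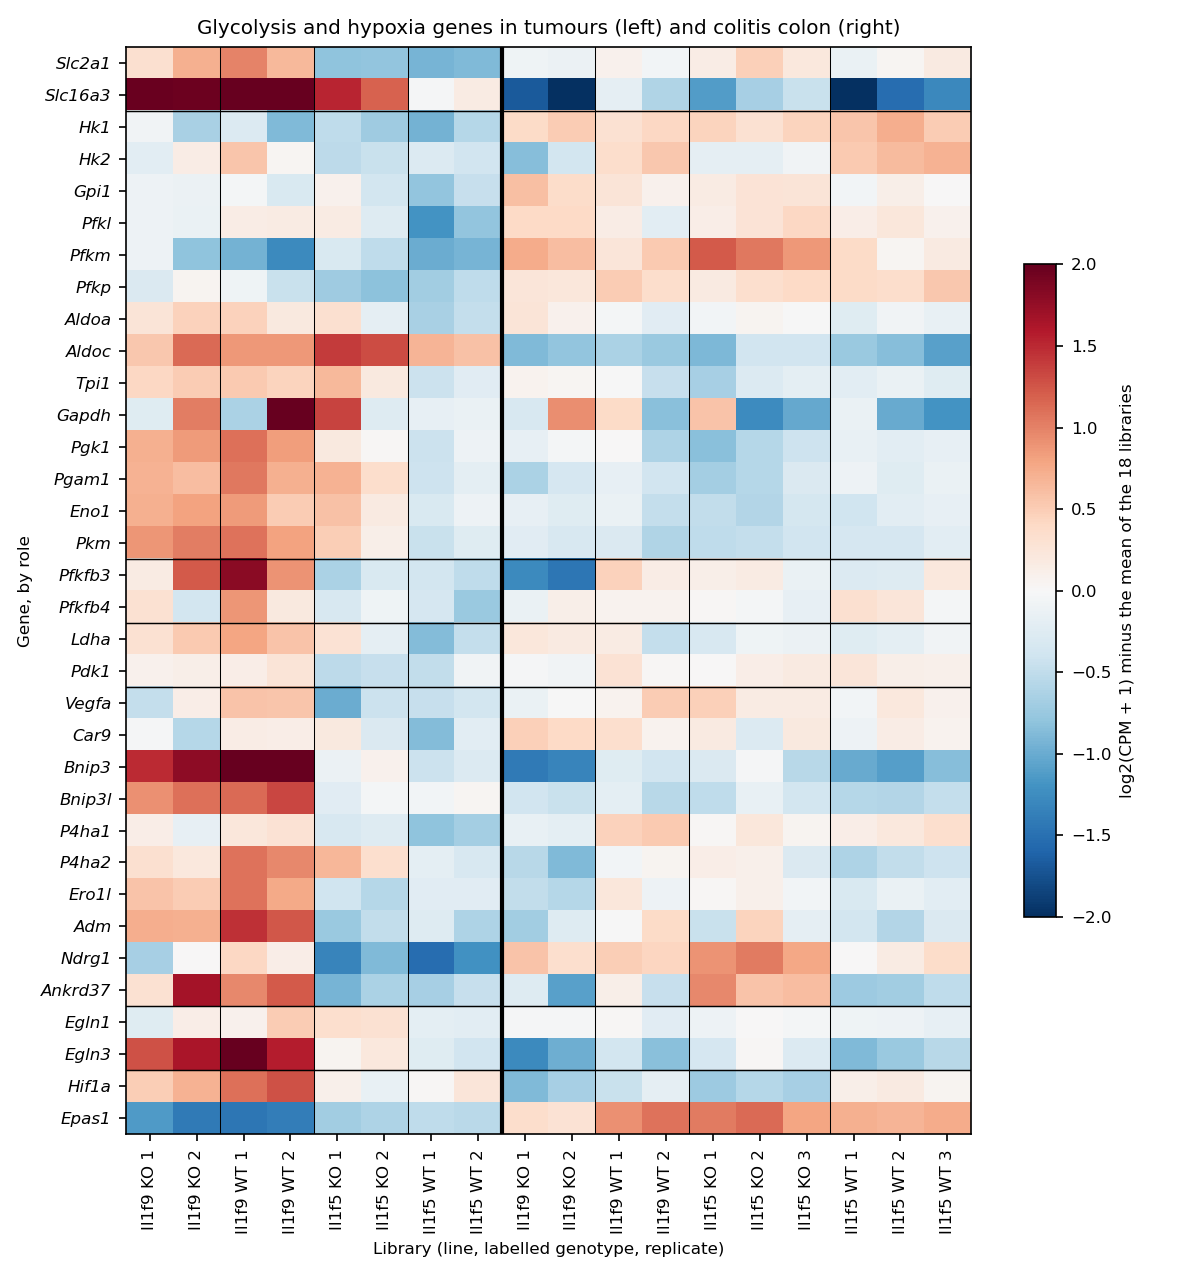
Level of each of the 34 genes (rows, grouped by role) in each of the 18 libraries (columns), as log2(CPM + 1) minus the gene's mean over the 18 libraries (colours stop at -2 and 2), tumours left of the heavy line and colitis colon right of it. Bnip3, Slc16a3 and Egln3 are at their highest in the 4 tumour libraries of the Il1f9 line, Epas1 and Pfkm are low in tumours, and the row of Gapdh has no order by group.

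Tumours were compared with colitis colon over all 18 libraries. The members moved in both directions between the tissues, with lactate export, the later steps of glycolysis, mitophagy genes and Hif1a higher over the tumours as a whole, and the early steps of glycolysis and Epas1 lower. Of the 35 entries, 16 rose and 12 fell in tumours, 28 in all (80.0%), beside 72.6% of all 19514 genes tested (36.5% higher, 36.1% lower), so the share called is near the background. The median log2 fold change of the members was 0.19. Colitis and tumour counts were deposited in separate tables, so tissue and table cannot be told apart.

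At the exit of the pathway, Slc16a3, the lactate exporter MCT4 (chromosome 11, 120948480 to 120960868), had lowest, median and highest values of 90.2, 314 and 603 CPM in tumours and 21.0, 39.5 and 80.9 CPM in colitis (log2 fold change 2.62 ± 0.13, adjusted p = 3.6e-10). Its lowest tumour library stood just above its highest colitis library. At the entrance, Slc2a1, the glucose transporter GLUT1, had 111, 193 and 421 CPM in tumours and 191, 219 and 292 CPM in colitis, without a call (log2 fold change -0.14 ± 0.08, adjusted p = 0.099); its tumour libraries reached both below and above the colitis range. Ldha likewise had 777, 1736 and 2450.1 CPM in tumours and 1011, 1322 and 1657 CPM in colitis with overlapping ranges (log2 fold change 0.19 ± 0.10, adjusted p = 0.0835).

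All 6 enzymes from hexokinase to phosphofructokinase fell over the tumours as a whole. Hk1, the hexokinase present in most cells, had 81.9, 103 and 150.5 CPM in tumours and 195, 214 and 262 CPM in colitis, without overlap (log2 fold change -1.01 ± 0.10, adjusted p = 1.14e-07). Pfkm had 3.72, 5.26 and 9.63 CPM in tumours and 10.7, 15.9 and 25.6 CPM in colitis (log2 fold change -1.44 ± 0.12, adjusted p = 1.9e-08), and Pfkp had 135, 172 and 248 CPM in tumours and 271, 306 and 349.9 CPM in colitis (log2 fold change -0.78 ± 0.07, adjusted p = 5.64e-08); neither pair of ranges overlapped. Gpi1, glucose phosphate isomerase, had 289.6, 436 and 533 CPM in tumours and 482, 584 and 766 CPM in colitis, with overlap (log2 fold change -0.49 ± 0.08, adjusted p = 3.1e-05). Pfkl changed by -0.45 ± 0.08, but in the Il1f9 WT libraries it was not lower in tumours than in colitis. Hk2 had 271, 330.0 and 574 CPM in tumours and 216, 434 and 629 CPM in colitis (log2 fold change -0.21 ± 0.09, adjusted p = 0.0374), and its fold change was 0.12 over the KO libraries alone and -0.52 over the WT libraries alone. Hk2 was called in 7 of the 18 fits without 1 library: those without colitis labelled Il1f5 WT 1, KO 1 or KO 2, colitis Il1f9 WT 1 or KO 1, and tumour Il1f9 WT 1 or KO 2.

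Of the later enzymes 6 rose, and Aldoa (0.09 ± 0.08) and Gapdh (0.99 ± 0.51) were not called. Aldoc, an aldolase known from brain, had 30.4, 38.2 and 56.0 CPM in tumours and 9.21, 11.7 and 15.6 CPM in colitis, a gap without overlap (log2 fold change 1.74 ± 0.10, adjusted p = 1.87e-10). Pkm had 1113, 2391 and 3209 CPM in tumours and 999, 1199.5 and 1306 CPM in colitis (log2 fold change 0.83 ± 0.07, adjusted p = 4.76e-08), its lowest tumours lying inside the colitis range. Pgam1 (phosphoglycerate mutase), Eno1, Pgk1 and Tpi1 rose by 0.80 ± 0.08, 0.72 ± 0.08, 0.69 ± 0.09 and 0.45 ± 0.09 on the log2 scale. Pgam1 ran from 143 to 399 CPM in tumours and from 119 to 177 CPM in colitis, Eno1 from 695 to 1536 and from 569 to 781 CPM, Pgk1 from 394 to 1139 and from 296 to 531 CPM, and Tpi1 from 476 to 1015 and from 408 to 675 CPM, all with overlap. In these 4 enzymes and in Pkm the 2 lowest tumours were those labelled Il1f5 WT, so the rise over all tumours was not seen in that group for every enzyme. Pkm had 1113 and 1277 CPM in tumours labelled Il1f5 WT and 1198, 1201 and 1306 CPM in colitis labelled Il1f5 WT, and Pgam1 had 143 and 166 CPM in tumours labelled Il1f5 WT and 177, 161 and 174 CPM in colitis labelled Il1f5 WT, with overlap in both. Of the regulators, Pfkfb3, which makes the activator of phosphofructokinase, rose by 0.61 ± 0.16, and its relative Pfkfb4 was not called (-0.09 ± 0.11). Pdk1, a kinase that inhibits pyruvate dehydrogenase, fell by 0.22 ± 0.06 (adjusted p = 0.0067).

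Among the hypoxia-induced genes, 5 rose and 4 fell of 10. Bnip3, a mitophagy receptor (chromosome 7, 138890836 to 138909519), had 23.8, 63.8 and 167 CPM in tumours and 11.5, 19.7 and 31.9 CPM in colitis (log2 fold change 1.68 ± 0.08, adjusted p = 2.4e-11). Its relative Bnip3l had 89.3, 153 and 266 CPM in tumours and 69.6, 75.7 and 94.5 CPM in colitis (log2 fold change 0.95 ± 0.07, adjusted p = 3.8e-09), and for either gene the low tumours overlap the colitis libraries. P4ha2, Adm (the vessel-widening peptide adrenomedullin) and Ero1l (an oxidase of the endoplasmic reticulum) rose by 0.73 ± 0.09, 0.44 ± 0.13 and 0.35 ± 0.06. Adm overlapped between the tissues among the libraries labelled Il1f5 WT. Ndrg1, a stress-induced gene of differentiated cells, had 65.6, 111 and 254 CPM in tumours and 191, 263 and 391 CPM in colitis (log2 fold change -1.12 ± 0.10, adjusted p = 5.11e-08), with overlap. Vegfa, the vessel growth factor, had 46.4, 71.1 and 139 CPM in tumours and 85.0, 102 and 134 CPM in colitis (log2 fold change -0.32 ± 0.10, adjusted p = 0.00959), and Car9, the surface carbonic anhydrase often used as a hypoxia marker, had 37.4, 63.6 and 78.8 CPM in tumours and 57.0, 77.6 and 95.9 CPM in colitis (log2 fold change -0.36 ± 0.11, adjusted p = 0.00958). Both textbook markers were lower over the tumours as a whole, with overlapping ranges, and over the WT libraries alone neither was called (adjusted p = 0.333 and 0.063). Vegfa went opposite ways in the WT libraries of the lines. It was higher in tumours than in colitis in Il1f9 WT mice and lower in those labelled Il1f5 WT. Ankrd37 was not called (0.42 ± 0.18, adjusted p = 0.0529), and P4ha1 fell by 0.37 ± 0.06.

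Egln3 and Egln1 rose, and the alpha subunits split. Their relative Egln2, outside the member list, ran from 70.7 to 132 CPM in tumours and from 80.3 to 97.9 CPM in colitis, with overlap. Egln3, a prolyl hydroxylase that is itself induced by hypoxia (chromosome 12, 54178981 to 54203860), had 105, 244 and 593 CPM in tumours and 55.9, 86.8 and 138 CPM in colitis (log2 fold change 1.45 ± 0.10, adjusted p = 1.55e-09), and Egln1, the main hydroxylase, rose by 0.17 ± 0.07, a call lost without any of 8 libraries (colitis labelled Il1f5 WT 3 or KO 1, colitis Il1f9 WT 2, KO 1 or KO 2, tumour labelled Il1f5 KO 1, and tumour Il1f9 WT 2 or KO 2). Hif1a had 187, 268 and 498 CPM in tumours and 112, 145 and 234 CPM in colitis (log2 fold change 0.88 ± 0.07, adjusted p = 5.05e-09). Epas1, the subunit also called HIF-2 alpha and abundant in vessels, had 35.3, 52.0 and 68.0 CPM in tumours and 119.7, 166 and 215 CPM in colitis (log2 fold change -1.74 ± 0.06, adjusted p = 1.13e-12). Epas1 did not overlap between the tissues, and Egln3 and Hif1a did. Among libraries labelled Il1f5 WT the Hif1a values of tumours and colitis overlapped, so its rise was not seen in that group.

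**Figure D2:**
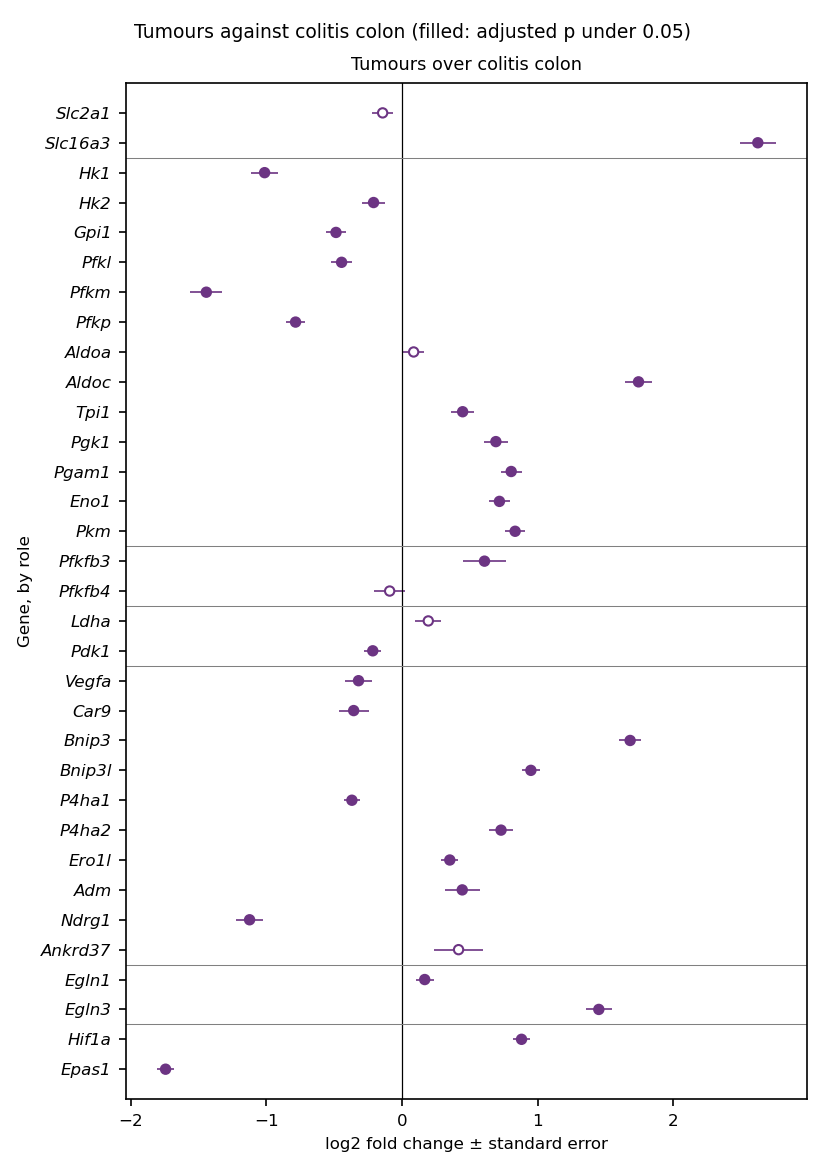
Log2 fold change of tumours over colitis colon (x axis, bars ± standard error from edgeR over all 18 libraries) for 33 genes grouped by role (Gapdh is left out for its wide error); filled points have an adjusted p under 0.05. Slc16a3 is highest at 2.62 and Epas1 lowest at -1.74, and the early enzymes Hk1 and Pfkm lie left of 0 while Aldoc, Pgk1 and Pkm lie right of it.

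Over the WT libraries alone 24 members were called (65.1% of all genes tested) and over the KO libraries alone also 24 (59.9%). Other lists of the same pathways also went both ways. Of 27 other genes of glucose handling, 8 rose and 12 fell in tumours; Ldhd (D-lactate dehydrogenase) rose by 1.497 ± 0.13 and Adpgk (an ADP-using glucokinase) by 0.59 ± 0.06, and Pck1 (the gluconeogenic carboxykinase) had a log2 fold change of -4.58 ± 0.17 and Hkdc1 (a hexokinase relative) of -6.51 ± 0.30. Of 13 genes of pyruvate entry into mitochondria 3 rose and 7 fell, led by the pyruvate dehydrogenase phosphatases Pdp1 (1.59 ± 0.08) and Pdp2 (1.26 ± 0.09) and the kinases Pdk2 (-1.17 ± 0.11) and Pdk3 (-0.53 ± 0.08). The HIF machinery gave 8 higher and 5 lower of 17, led by the ubiquitin ligase parts Rbx1 (0.68 ± 0.05) and Eloc (0.88 ± 0.07), and by Arnt (-0.48 ± 0.05) and P4htm (-1.14 ± 0.22). Of 26 other hypoxia-induced genes 11 rose and 12 fell, led by Ddit4, a brake on mTOR (1.45 ± 0.07), and Hmox1, haem oxygenase (2.24 ± 0.13), and by the mitochondrial genes Higd1a (-1.86 ± 0.12) and Fam162a (-1.59 ± 0.12).

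Markers of other cell types moved with these genes between the tissues. Smooth muscle markers were lower in tumours for 8 of 8 (summed 80.3 to 866 CPM in tumours and 1556 to 5061 CPM in colitis), endothelial markers for 5 of 7 (48.9 to 118 CPM and 105 to 286 CPM), fibroblast markers for 4 of 6 (644 to 1787 CPM and 988 to 2905 CPM) and adipocyte markers for 5 of 5 (6.93 to 13.6 CPM and 61.4 to 214 CPM, with 2 or 3 of the 5 at 0 in each tumour). Squamous markers were higher in tumours for 6 of 7 (85.4 to 716 CPM and 4.88 to 11.1 CPM). Of the other lists, 5 epithelial markers were higher and 2 lower of 8 (9906 to 23722 CPM and 9748 to 15471 CPM), 5 proliferation genes higher and 1 lower of 8, 4 macrophage markers higher of 6, 4 neutrophil markers higher and 1 lower of 6, 1 erythrocyte marker higher of 5, and 1 skeletal muscle marker higher and 3 lower of 6. Their part in the differences above was not tested. In bulk tissue, fewer cells of a type and less RNA per cell cannot be told apart.

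Every library of Slc2a1, Slc16a3, Pkm, Ldha, Hk2, Bnip3, Egln3, Hif1a and Epas1 is plotted by group, and the tumours of the Il1f9 line stand above those labelled Il1f5 for most of these genes.

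**Figure D3:**
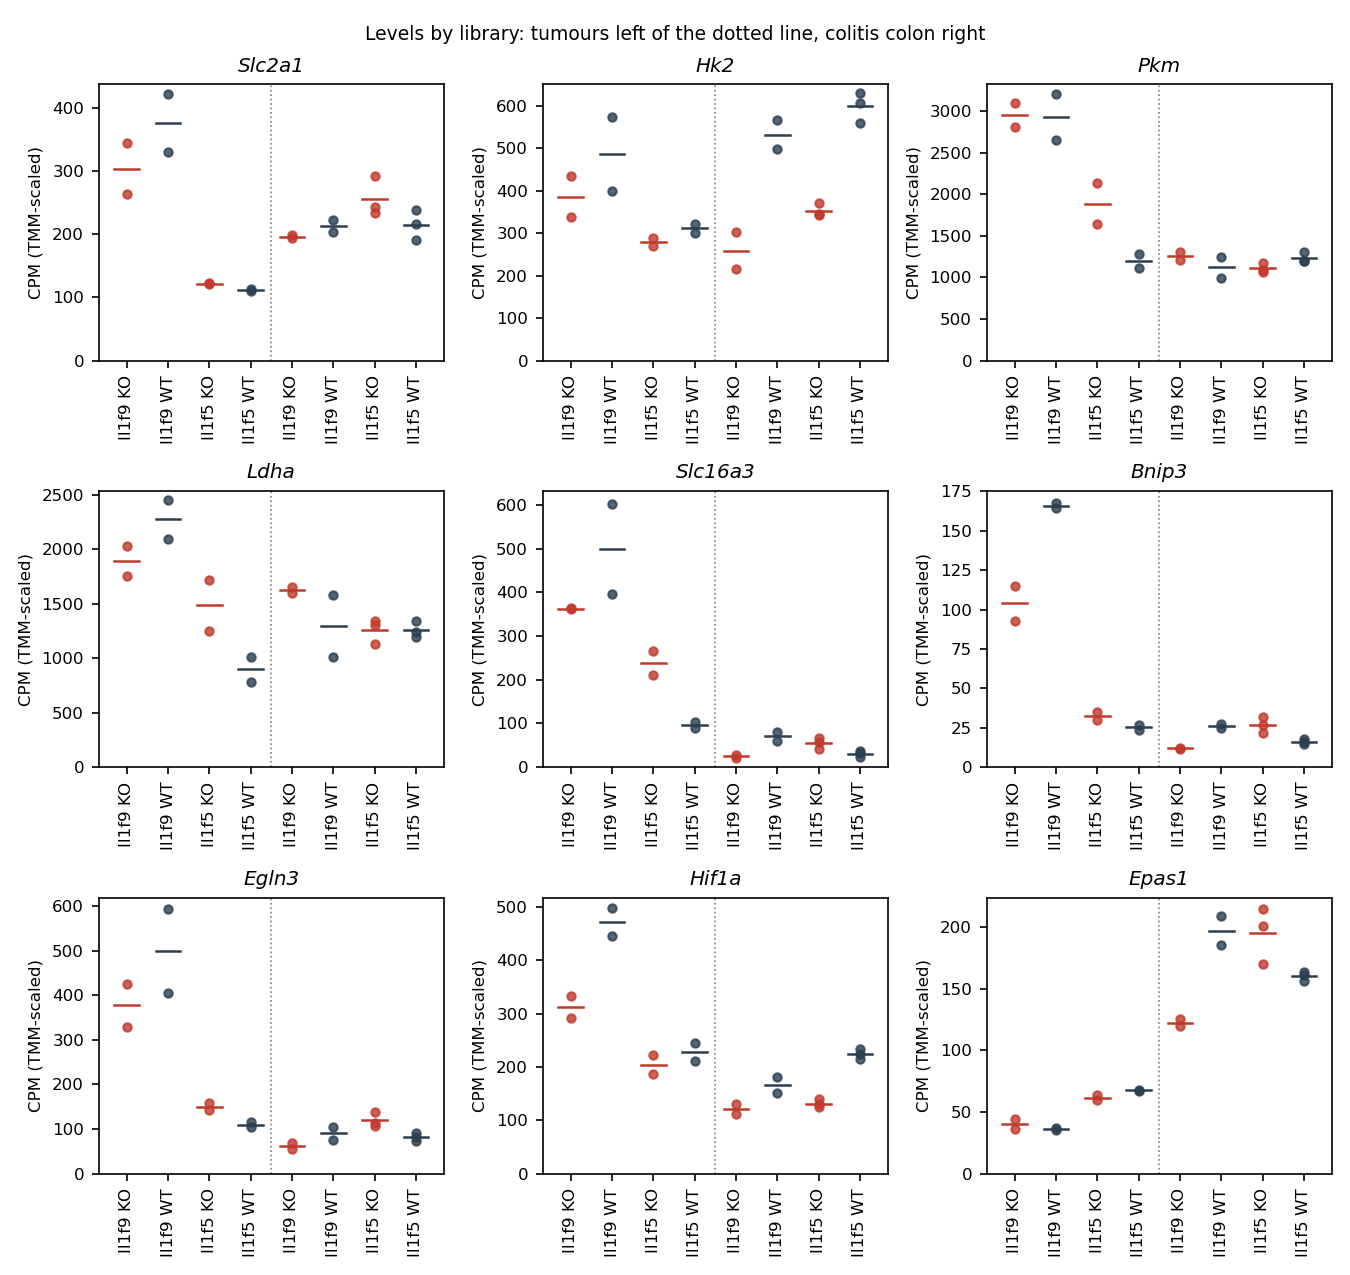
CPM of 9 genes in each library (points) by tissue, line and genotype, with group means as bars; KO is in red and WT in dark, and tumours are left of colitis. Slc2a1 lies between 111 and 122 CPM in the 4 tumours labelled Il1f5, under its lowest colitis library at 191 CPM, and between 263 and 421 CPM in the 4 tumours of the Il1f9 line.

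Within tumours, WT mice of the 2 lines were then compared. Glucose entry, most of glycolysis and 9 of the 10 hypoxia-induced genes were higher in Il1f9 WT tumours than in tumours labelled Il1f5 WT. Of the 35 entries, 25 rose and 1 fell (74.3%), beside 28.5% of 17859 genes (16.8% higher, 11.7% lower). The median log2 fold change of the members was 1.17, against 0.03 for all genes. In each of the 26 called members the 2 libraries of either group did not overlap. The calls came from the same libraries, so this is no further support for them. The tumour counts of the lines were deposited in separate tables, so line and table cannot be told apart, and a direction here rests on a group that goes against its Il1f5 label.

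Both transporters rose. Slc16a3 had 603 and 397 CPM in Il1f9 WT tumours, against 90.2 and 104 CPM in tumours labelled Il1f5 WT (log2 fold change 2.39 ± 0.23, adjusted p = 0.000718). Slc2a1, at chromosome 4, 119108711 to 119137983, had 421 and 329 CPM in Il1f9 WT tumours, against 111 and 114 CPM in tumours labelled Il1f5 WT (log2 fold change 1.76 ± 0.18, adjusted p = 0.000768). All 4 tumours labelled Il1f5, KO and WT, lay below the lowest colitis library for Slc2a1.

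Of the 15 glycolysis entries 8 rose and 0 fell by edgeR (9 had an unadjusted p under 0.05 and a positive change). Pkm had 3209 and 2650.2 CPM in Il1f9 WT tumours, against 1113 and 1277 CPM in tumours labelled Il1f5 WT (log2 fold change 1.31 ± 0.19, adjusted p = 0.00221). Pgk1 had 1139 and 941 CPM in Il1f9 WT tumours, against 394 and 493 CPM in tumours labelled Il1f5 WT (log2 fold change 1.25 ± 0.18, adjusted p = 0.00216). Pgam1 had 399 and 313 CPM in Il1f9 WT tumours, against 143 and 166 CPM in tumours labelled Il1f5 WT (log2 fold change 1.22 ± 0.19, adjusted p = 0.00271). These late enzymes of the pathway kept their calls without any 1 tumour library. Pfkl had 260.2 and 263 CPM in Il1f9 WT tumours, against 101 and 135 CPM in tumours labelled Il1f5 WT (log2 fold change 1.17 ± 0.19, adjusted p = 0.00348). Aldoa had 1451 and 1211 CPM in Il1f9 WT tumours, against 677 and 764 CPM in tumours labelled Il1f5 WT (log2 fold change 0.90 ± 0.20, adjusted p = 0.0107). Eno1 had 1536 and 1217 CPM in Il1f9 WT tumours, against 695 and 799 CPM in tumours labelled Il1f5 WT (log2 fold change 0.90 ± 0.19, adjusted p = 0.01). Either line's pair of libraries stayed on its own side in these too. Tpi1 had 922 and 882 CPM in Il1f9 WT tumours, against 476 and 552 CPM in tumours labelled Il1f5 WT (log2 fold change 0.83 ± 0.18, adjusted p = 0.0106). Hk2 had 574 and 399.9 CPM in Il1f9 WT tumours, against 322 and 300.0 CPM in tumours labelled Il1f5 WT (log2 fold change 0.67 ± 0.20, adjusted p = 0.0365). Hk2 had the smallest change of the called enzymes. Hk1 (0.21 ± 0.27), Gpi1 (0.47 ± 0.20), Pfkm (-0.15 ± 0.34), Pfkp (0.36 ± 0.18), Aldoc (0.25 ± 0.19) and Gapdh (2.25 ± 1.31) were not called.

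Both members that make the phosphofructokinase activator rose. Pfkfb3 had 253 and 134 CPM in Il1f9 WT tumours, against 55.3 and 50.1 CPM in tumours labelled Il1f5 WT (log2 fold change 1.90 ± 0.42, adjusted p = 0.0167). Pfkfb4 had 51.2 and 31.4 CPM in Il1f9 WT tumours, against 21.3 and 15.9 CPM in tumours labelled Il1f5 WT (log2 fold change 1.17 ± 0.31, adjusted p = 0.0257). At the fork after pyruvate, Ldha had 2450.1 and 2096 CPM in Il1f9 WT tumours, against 777 and 1015 CPM in tumours labelled Il1f5 WT (log2 fold change 1.36 ± 0.21, adjusted p = 0.00296). Pdk1, the inhibitor of pyruvate dehydrogenase, changed by 0.48 ± 0.17 without a call (adjusted p = 0.0599).

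Bnip3 had the largest change of the called members. It had 167 and 164 CPM in Il1f9 WT tumours, against 23.8 and 26.8 CPM in tumours labelled Il1f5 WT (log2 fold change 2.73 ± 0.17, adjusted p = 0.000227). Adm had 39.3 and 33.8 CPM in Il1f9 WT tumours, against 11.3 and 8.56 CPM in tumours labelled Il1f5 WT (log2 fold change 1.89 ± 0.22, adjusted p = 0.0012). Ankrd37 had 21.8 and 26.5 CPM in Il1f9 WT tumours, against 6.39 and 7.46 CPM in tumours labelled Il1f5 WT (log2 fold change 1.82 ± 0.40, adjusted p = 0.013). In Bnip3 the lower Il1f9 WT tumour held several times the level of either tumour labelled Il1f5 WT. Ndrg1 had 254 and 208 CPM in Il1f9 WT tumours, against 65.6 and 81.5 CPM in tumours labelled Il1f5 WT (log2 fold change 1.67 ± 0.25, adjusted p = 0.00301). P4ha2 had 34.7 and 31.5 CPM in Il1f9 WT tumours, against 13.6 and 12.4 CPM in tumours labelled Il1f5 WT (log2 fold change 1.37 ± 0.19, adjusted p = 0.00186). Bnip3l had 230.1 and 266 CPM in Il1f9 WT tumours, against 101 and 108 CPM in tumours labelled Il1f5 WT (log2 fold change 1.27 ± 0.15, adjusted p = 0.00127). These 3 again did not overlap. Ero1l had 217 and 172 CPM in Il1f9 WT tumours, against 87.1 and 86.4 CPM in tumours labelled Il1f5 WT (log2 fold change 1.18 ± 0.16, adjusted p = 0.00175). P4ha1, the other collagen prolyl hydroxylase subunit, had 41.3 and 42.8 CPM in Il1f9 WT tumours, against 19.5 and 21.6 CPM in tumours labelled Il1f5 WT (log2 fold change 1.05 ± 0.18, adjusted p = 0.00379). Vegfa had 139 and 138 CPM in Il1f9 WT tumours, against 67.8 and 72.6 CPM in tumours labelled Il1f5 WT (log2 fold change 0.998 ± 0.23, adjusted p = 0.0143). Car9, with 76.4 and 75.4 CPM in Il1f9 WT tumours and 37.4 and 59.5 CPM in tumours labelled Il1f5 WT, was the member of this group that missed the threshold (log2 fold change 0.67 ± 0.28, adjusted p = 0.102).

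Egln3 and Egln1 both rose. Their relative Egln2, outside the member list, had 70.9 and 77.2 CPM in Il1f9 WT tumours, against 72.4 and 70.7 CPM in tumours labelled Il1f5 WT. Egln3 had 593 and 406 CPM in Il1f9 WT tumours, against 115 and 105 CPM in tumours labelled Il1f5 WT (log2 fold change 2.20 ± 0.22, adjusted p = 0.000718). Egln1 had 74.2 and 99.3 CPM in Il1f9 WT tumours, against 60.6 and 59.8 CPM in tumours labelled Il1f5 WT (log2 fold change 0.54 ± 0.18, adjusted p = 0.0456). The Egln1 call was lost without any 1 of 5 tumour libraries (labelled Il1f5 WT 1, WT 2, KO 1 or KO 2, or Il1f9 WT 2), and its change was the smallest of the 26. Of the alpha subunits, Hif1a had 445 and 498 CPM in Il1f9 WT tumours, against 211 and 244 CPM in tumours labelled Il1f5 WT (log2 fold change 1.07 ± 0.16, adjusted p = 0.00252). Epas1 had 35.3 and 36.8 CPM in Il1f9 WT tumours, against 68.0 and 67.1 CPM in tumours labelled Il1f5 WT (log2 fold change -0.89 ± 0.16, adjusted p = 0.00508). The subunits thus went opposite ways between the lines, as they did between the tissues over all 18 libraries.

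**Figure D4:**
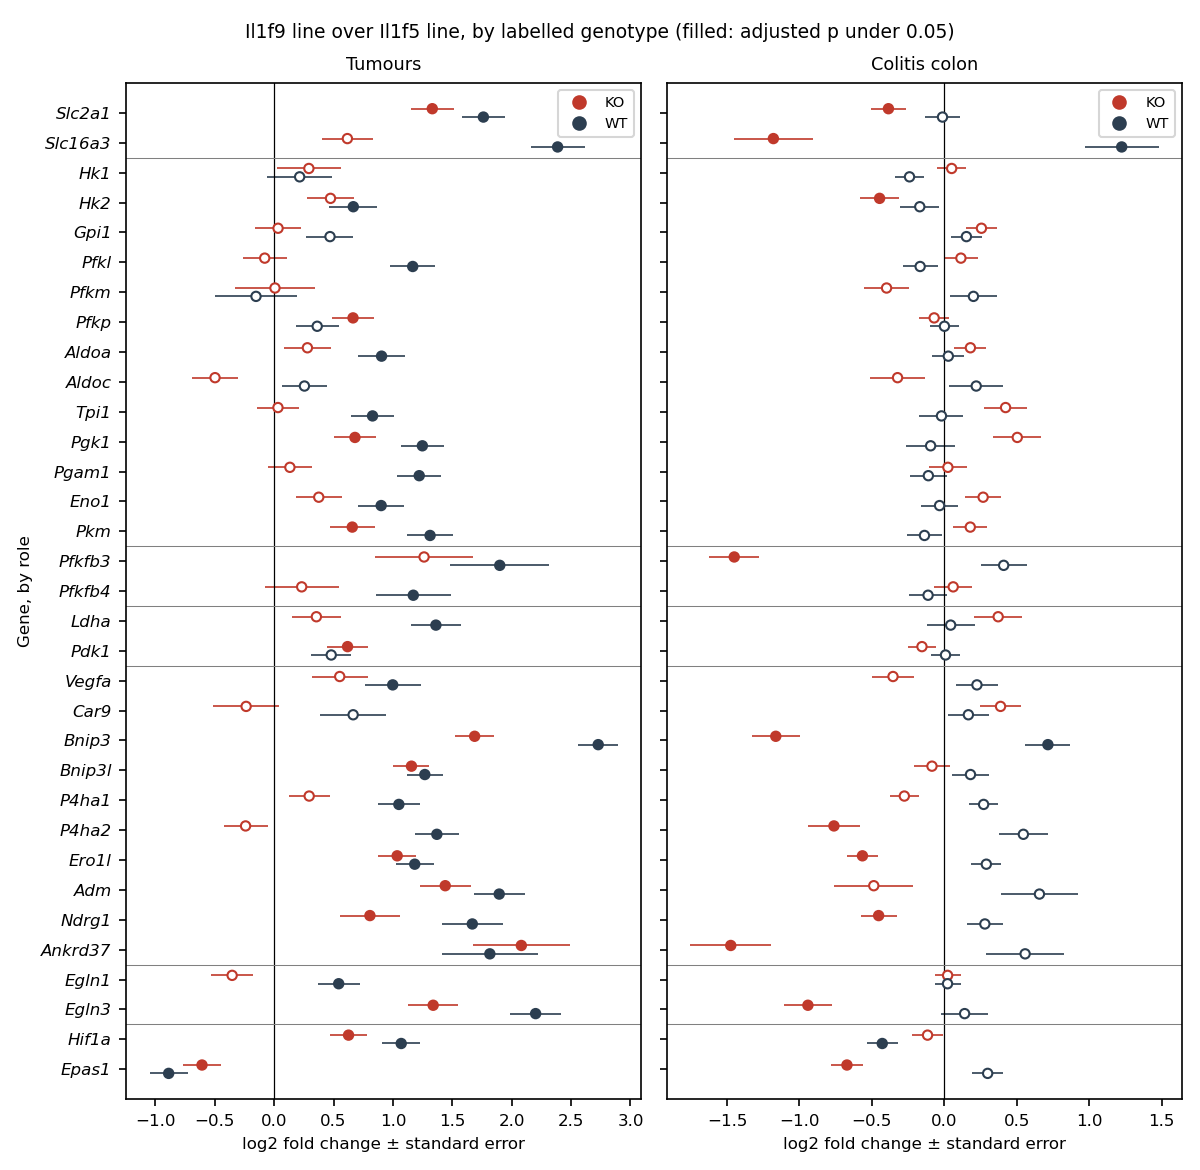
Log2 fold change of the Il1f9 line over the Il1f5 line (x axis, bars ± standard error, with a scale of its own in each panel) for 33 genes by role, between mice labelled KO (red) and between mice labelled WT (dark), in tumours (left) and colitis (right); filled points have an adjusted p under 0.05. In tumours 13 KO points and 25 WT points are filled right of 0, with Bnip3 at 1.69 in KO and 2.73 in WT, and Epas1 is filled left of 0 in both; in colitis the 11 filled KO points lie left of 0 and the filled WT points are Slc16a3, Bnip3 and Hif1a.

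The number of members called shifted when 1 library was left out, and was lowest without labelled Il1f5 WT 1. The number of all genes called shifted between these fits too, so this is not a result about the members alone. In the KO libraries of the same lines, which share the estimate of the spread with the WT contrast but not its group means, 13 members were higher and 1 lower in Il1f9 KO tumours than in tumours labelled Il1f5 KO, beside 22.0% of all genes called (12.2% higher, 9.83% lower), and 12 of the 14 were called in WT tumours as well. Bnip3 (1.69 ± 0.16), Adm (1.44 ± 0.21), Ankrd37 (2.08 ± 0.41), Egln3 (1.34 ± 0.21) and Slc2a1 (1.33 ± 0.18) were among them, with 263 and 344 CPM of Slc2a1 in Il1f9 KO tumours and 120.5 and 122 CPM in tumours labelled Il1f5 KO. Pfkl (-0.08), Egln1 (-0.35) and P4ha2 (-0.24) had the opposite sign in KO tumours, without a call.

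Other pathway genes also differed between the WT tumours. Of 26 other hypoxia-induced genes 10 rose and 0 fell by edgeR, led by Hmox1 (3.08 ± 0.26) and the lipid droplet gene Hilpda (2.61 ± 0.25). Of 26 other glucose genes 5 rose and 1 fell, with Slc2a3 at 2.88 ± 0.29 and Bpgm (bisphosphoglycerate mutase) at 0.62 ± 0.14, and Pck1 at -1.92 ± 0.49. Pyruvate entry genes gave 5 higher and 1 lower of 13, with the pyruvate dehydrogenase subunits Pdhb (0.70 ± 0.14) and Dlat (0.60 ± 0.14), and Pdp2 (-0.99 ± 0.22). Of the HIF machinery 8 of 17 rose, with Cited2, a competitor of HIF for its coactivator, at 1.30 ± 0.19 and Rbx1 at 0.71 ± 0.14.

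Markers of other cells moved in the same contrast. Neutrophil markers were higher for 5 of 6 (summed 1765 to 3948 CPM in Il1f9 WT tumours and 276 to 283 CPM in tumours labelled Il1f5 WT), erythrocyte markers for 5 of 5 (282 to 677 CPM and 8.70 to 11.0 CPM) and epithelial markers for 6 of 8 (17911 to 21386 CPM and 9906 to 11374 CPM). Of the rest, 1 of 7 endothelial markers was lower, 1 of 6 macrophage markers was higher, and 2 of 8 proliferation genes were higher and 2 lower. In KO tumours the neutrophil sum was 984 to 1693 CPM in the Il1f9 line and 346 to 415 CPM in the line labelled Il1f5. Their part in the member differences was not tested.

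In colitis the WT mice of the lines differed in few members. Of the 35 entries 2 rose and 1 fell in Il1f9 WT colitis relative to colitis labelled Il1f5 WT (8.57%), beside 4.93% of 18299 genes (3.25% higher, 1.68% lower). Slc16a3 had 80.9 and 60.5 CPM in Il1f9 WT colitis, against 22.2, 31.4 and 37.1 CPM in colitis labelled Il1f5 WT (log2 fold change 1.22 ± 0.25, adjusted p = 0.0336). Bnip3 had 27.5 and 24.8 CPM in Il1f9 WT colitis, against 15.6, 14.6 and 17.6 CPM in colitis labelled Il1f5 WT (log2 fold change 0.72 ± 0.16, adjusted p = 0.0272). Hif1a had 151 and 182 CPM in Il1f9 WT colitis, against 225, 234 and 214 CPM in colitis labelled Il1f5 WT (log2 fold change -0.43 ± 0.11, adjusted p = 0.0448). None of the 3 overlapped between the groups, and Slc16a3 and Bnip3 were higher in the Il1f9 line as they were in WT tumours, while Hif1a was lower here and higher there. The count was 0 by edgeR without labelled Il1f5 WT 1 or WT 2, and 5 without labelled Il1f5 KO 3. The number of all genes called shifted between such fits too, so this is not a result about the members alone.

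Among KO colitis libraries Slc16a3 and Bnip3 had the opposite order of the lines, and Hif1a was again lower in the Il1f9 line, without a call (-0.12 ± 0.11). There 11 members were lower and 0 higher in Il1f9 KO colitis than in colitis labelled Il1f5 KO, beside 21.3% of all genes called (11.2% higher, 10.1% lower). Slc16a3 (-1.18 ± 0.27) and Bnip3 (-1.16 ± 0.17) were among the 11, and Ankrd37 (-1.47 ± 0.28) and Pfkfb3 (-1.45 ± 0.17) changed most. In WT colitis, of the other lists, hypoxia-induced genes gave 5 higher of 26, with Ddit4 at 0.56 ± 0.10 and Hmox1 at 1.18 ± 0.22. Glucose genes gave 1 higher (Slc2a3, 1.40 ± 0.30) and 3 lower of 27, led by the intestinal sugar transporters Slc5a1 (-0.59 ± 0.13) and Slc2a5 (-1.32 ± 0.30). Of 13 pyruvate entry genes 3 were lower, led by Pdhx (-0.72 ± 0.14) and Pcx (-1.01 ± 0.21), and of 17 HIF machinery genes Hif3a was higher (1.14 ± 0.20). Macrophage markers were higher for 5 of 6 in the same contrast, endothelial for 4 of 7 and fibroblast for 4 of 6, and their part was not tested.

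In Il1f9 KO colitis the lactate exporter, the inducible hexokinase, 4 of 10 hypoxia-induced genes and both HIF alpha subunits were lower than in Il1f9 WT colitis. Of the 35 entries 1 rose and 9 fell in Il1f9 KO colitis (28.6%), beside 19.6% of 18299 genes (9.59% higher, 9.98% lower), with a median log2 fold change of -0.16. The 10 called members did not overlap between KO and WT in the libraries that gave the calls, which is no further support for them.

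Along the pathway, Hk2 had 216 and 302 CPM in Il1f9 KO colitis, against 498 and 566 CPM in Il1f9 WT colitis (log2 fold change -1.04 ± 0.15, adjusted p = 0.00115). Pfkfb3 had 28.9 and 25.6 CPM in Il1f9 KO colitis, against 99.3 and 79.4 CPM in Il1f9 WT colitis (log2 fold change -1.72 ± 0.18, adjusted p = 0.000285). Slc16a3 had 28.1 and 21.0 CPM in Il1f9 KO colitis, against 80.9 and 60.5 CPM in Il1f9 WT colitis (log2 fold change -1.53 ± 0.29, adjusted p = 0.00817). These are the first enzyme, an activator of phosphofructokinase and the lactate exporter, and each fell. The Slc16a3 call was lost without Il1f9 KO 2. Pfkl had 308 and 307 CPM in Il1f9 KO colitis, against 259 and 201 CPM in Il1f9 WT colitis (log2 fold change 0.42 ± 0.13, adjusted p = 0.0455). Pfkl was the member that rose, and its call was lost without any 1 of 7 libraries (labelled Il1f5 WT 1, WT 2, WT 3 or KO 2, or Il1f9 WT 2, KO 1 or KO 2).

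Of the hypoxia-induced genes 4 of 10 fell. Bnip3 had 11.5 and 12.4 CPM in Il1f9 KO colitis, against 27.5 and 24.8 CPM in Il1f9 WT colitis (log2 fold change -1.13 ± 0.18, adjusted p = 0.0018). P4ha2 had 10.4 and 8.09 CPM in Il1f9 KO colitis, against 15.1 and 16.4 CPM in Il1f9 WT colitis (log2 fold change -0.77 ± 0.19, adjusted p = 0.0162). P4ha1 had 31.4 and 30.6 CPM in Il1f9 KO colitis, against 48.4 and 50.8 CPM in Il1f9 WT colitis (log2 fold change -0.68 ± 0.11, adjusted p = 0.00218). In these the higher KO library stayed below the lower WT library. Ero1l had 72.0 and 68.4 CPM in Il1f9 KO colitis, against 119 and 94.5 CPM in Il1f9 WT colitis (log2 fold change -0.61 ± 0.12, adjusted p = 0.005). Hif1a had 112 and 131 CPM in Il1f9 KO colitis, against 151 and 182 CPM in Il1f9 WT colitis (log2 fold change -0.46 ± 0.12, adjusted p = 0.0192). Epas1 had 125 and 119.7 CPM in Il1f9 KO colitis, against 185 and 209 CPM in Il1f9 WT colitis (log2 fold change -0.69 ± 0.12, adjusted p = 0.00281). Both alpha subunits were therefore lower in Il1f9 KO colitis. The Hif1a call was lost without Il1f9 WT 2 or KO 1, and the P4ha2 call without Il1f9 WT 2 or KO 2.

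Markers of white blood cells and stroma fell in Il1f9 KO colitis as well. Neutrophil markers were lower for 5 of 6 (summed 197 to 256 CPM in Il1f9 KO colitis and 648 to 1227 CPM in Il1f9 WT colitis), macrophage for 5 of 6 (113 to 147 CPM and 307 to 404 CPM), endothelial for 5 of 7 (105 to 123 CPM and 186 to 248 CPM) and fibroblast for 5 of 6 (988 to 1392 CPM and 2053 to 2905 CPM). Smooth muscle markers were higher for 8 of 8 (4518 to 5061 CPM and 1556 to 2755 CPM) and epithelial markers for 4 of 8 (15328 to 15471 CPM and 9748 to 12483 CPM). Their part in the member changes was not tested. Of the other lists, hypoxia-induced genes gave 3 higher and 9 lower of 26, with Higd1a (0.76 ± 0.16) and Gbe1 (0.60 ± 0.16), and Hmox1 (-1.92 ± 0.26) and the hormone Stc2 (-0.87 ± 0.13). Glucose genes gave 6 higher and 4 lower of 27, with Hkdc1 (1.13 ± 0.13) and Pck1 (0.81 ± 0.11), and Hk3, the hexokinase of white blood cells (-3.27 ± 0.30), and Adpgk (-0.81 ± 0.12). Of 13 pyruvate entry genes 7 rose and 0 fell by edgeR, led by Pdhb (0.55 ± 0.09) and Pdhx (0.87 ± 0.15), and HIF machinery gave 3 higher and 2 lower of 17, with Rbx1 (0.76 ± 0.11) and Eloc (0.61 ± 0.10), and Hif3a (-1.81 ± 0.23) and Ep300 (-0.38 ± 0.11).

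In colitis labelled Il1f5 KO the lactate exporter and 4 of 10 hypoxia-induced genes were higher, and the inducible hexokinase and Hif1a lower, than in colitis labelled Il1f5 WT. Of the 35 entries 8 rose and 2 fell in colitis labelled Il1f5 KO (28.6%), beside 24.7% of 18299 genes (13.7% higher, 11.0% lower), so the share is near the background. The median was 0.14 against -0.01 for all genes. Since Il1f5 reads were found in the libraries labelled KO and not in those labelled WT, these directions follow the labels alone.

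Of the transport and glycolysis genes 3 were called. Slc16a3 had 41.9, 57.6 and 67.2 CPM in colitis labelled Il1f5 KO, against 22.2, 31.4 and 37.1 CPM in colitis labelled Il1f5 WT (log2 fold change 0.88 ± 0.23, adjusted p = 0.0275). Pfkm had 25.6, 22.7 and 19.9 CPM in colitis labelled Il1f5 KO, against 13.8, 10.7 and 11.9 CPM in colitis labelled Il1f5 WT (log2 fold change 0.91 ± 0.14, adjusted p = 0.00253). Hk2 had 343, 346 and 370.5 CPM in colitis labelled Il1f5 KO, against 560.4, 607 and 629 CPM in colitis labelled Il1f5 WT (log2 fold change -0.76 ± 0.12, adjusted p = 0.0026). Hk2 fell, as it did in Il1f9 KO colitis, and Slc16a3 rose. Of the hypoxia-induced genes 4 of 10 rose. Ankrd37 had 21.7, 16.4 and 16.9 CPM in colitis labelled Il1f5 KO, against 6.08, 6.20 and 7.20 CPM in colitis labelled Il1f5 WT (log2 fold change 1.49 ± 0.24, adjusted p = 0.00302). Bnip3 had 26.6, 31.9 and 21.8 CPM in colitis labelled Il1f5 KO, against 15.6, 14.6 and 17.6 CPM in colitis labelled Il1f5 WT (log2 fold change 0.75 ± 0.14, adjusted p = 0.00513). Ndrg1 had 358, 391 and 325 CPM in colitis labelled Il1f5 KO, against 191, 214 and 245 CPM in colitis labelled Il1f5 WT (log2 fold change 0.72 ± 0.11, adjusted p = 0.00238). Ankrd37 had the largest change, and none of the 3 genes overlapped between the groups. P4ha2 had 17.3, 16.9 and 12.7 CPM in colitis labelled Il1f5 KO, against 9.97, 10.9 and 11.5 CPM in colitis labelled Il1f5 WT (log2 fold change 0.53 ± 0.15, adjusted p = 0.0283).

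Of the HIF system, Egln3 had 108, 138 and 113 CPM in colitis labelled Il1f5 KO, against 73.8, 81.4 and 92.1 CPM in colitis labelled Il1f5 WT (log2 fold change 0.54 ± 0.14, adjusted p = 0.0222). Hif1a had 124, 139.5 and 130.3 CPM in colitis labelled Il1f5 KO, against 225, 234 and 214 CPM in colitis labelled Il1f5 WT (log2 fold change -0.77 ± 0.10, adjusted p = 0.001). Epas1 had 201, 215 and 169.5 CPM in colitis labelled Il1f5 KO, against 161, 156 and 163 CPM in colitis labelled Il1f5 WT (log2 fold change 0.28 ± 0.10, adjusted p = 0.0487). All of these stayed apart between the labelled groups, with Hif1a lower and Epas1 higher in the libraries labelled KO. The count of members called was 6 without labelled Il1f5 WT 1, WT 2 or KO 2. The number of all genes called shifted between such fits too. Calls of Hk2, Ndrg1, Hif1a, Bnip3, Pfkm and Ankrd37 held without any 1 colitis library, and those of Slc16a3, P4ha2, Egln3 and Epas1 did not.

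Several textbook markers passed no test between the colitis genotypes. Slc2a1 had 199 and 194 CPM in Il1f9 KO and 223 and 203 CPM in Il1f9 WT colitis, and 233, 292 and 244 CPM in colitis labelled Il1f5 KO and 191, 216 and 238 CPM in colitis labelled Il1f5 WT, without a call (adjusted p = 0.574 and 0.103). Ldha had 1657 and 1597 CPM in Il1f9 KO and 1582 and 1011 CPM in Il1f9 WT colitis, and 1127, 1337 and 1307 CPM in colitis labelled Il1f5 KO and 1194, 1241 and 1342 CPM in colitis labelled Il1f5 WT (adjusted p = 0.232 and 0.995). Pkm had 1303 and 1211 CPM in Il1f9 KO and 1245 and 999 CPM in Il1f9 WT colitis, and 1070.1, 1091 and 1169.9 CPM in colitis labelled Il1f5 KO and 1198, 1201 and 1306 CPM in colitis labelled Il1f5 WT (adjusted p = 0.411 and 0.308). So Slc2a1, Pkm and Ldha were called in neither colitis contrast. Vegfa had 85.0 and 92.7 CPM in Il1f9 KO and 98.3 and 134 CPM in Il1f9 WT colitis, and 131, 105 and 105 CPM in colitis labelled Il1f5 KO and 90.6, 109 and 99.0 CPM in colitis labelled Il1f5 WT (adjusted p = 0.105 and 0.287). Car9 had 95.9 and 91.4 CPM in Il1f9 KO and 87.2 and 72.2 CPM in Il1f9 WT colitis, and 78.6, 57.0 and 79.0 CPM in colitis labelled Il1f5 KO and 64.5, 76.5 and 72.4 CPM in colitis labelled Il1f5 WT (adjusted p = 0.323 and 0.965).

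Stromal and erythrocyte markers rose in colitis labelled Il1f5 KO: endothelial for 7 of 7 (summed 221 to 286 CPM in colitis labelled Il1f5 KO and 132 to 137 CPM in colitis labelled Il1f5 WT), smooth muscle for 6 of 8 (3550 to 5053 CPM and 2152 to 2393 CPM), fibroblast for 5 of 6 (2237 to 2375 CPM and 1375 to 1539 CPM) and erythrocyte for 3 of 5. Epithelial markers were lower for 2 of 8 (10486 to 12249 CPM and 13008 to 13863 CPM) and proliferation genes for 2 of 8 (353 to 712 CPM and 901 to 903 CPM). The part of any of these marker lists was not tested. Other hypoxia-induced genes gave 10 higher and 1 lower of 26, with Ddit4 (0.55 ± 0.09) and the hormone Stc1 (1.42 ± 0.26), and Tfrc, the transferrin receptor (-0.87 ± 0.25). Glucose genes gave 6 higher and 2 lower of 27, with Pck1 (0.59 ± 0.09) and Ldhb (1.03 ± 0.17), and Hk3 (-1.16 ± 0.23) and Slc5a1 (-0.37 ± 0.12). Pyruvate entry genes gave 2 higher and 3 lower of 13, with Pdk2 (0.60 ± 0.11) and Pdk4 (1.55 ± 0.40), and Dlat (-0.49 ± 0.08) and Pdp2 (-0.66 ± 0.13). HIF machinery gave 4 higher and 2 lower of 17, with Hif3a (1.12 ± 0.18) and Siah1a (0.39 ± 0.10), and Cul2 (-0.45 ± 0.10) and Siah2 (-0.50 ± 0.13).

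**Figure D5:**
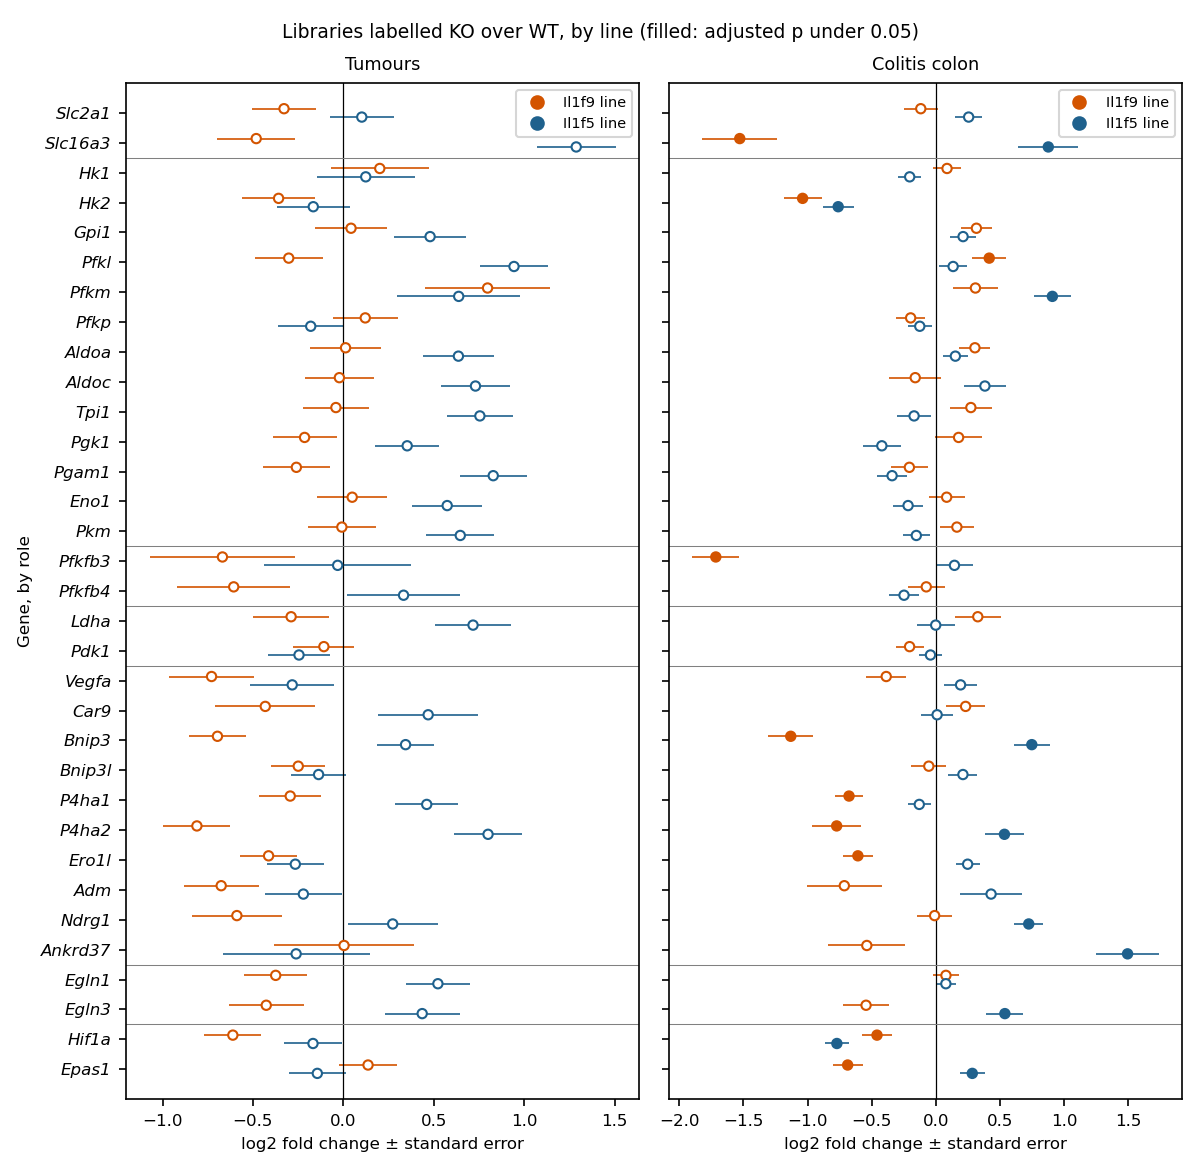
Log2 fold change of KO over WT (x axis, bars ± standard error) for 33 genes by role, in tumours and in colitis, for the Il1f9 line and for the line labelled Il1f5; filled points have an adjusted p under 0.05. No point is filled in tumours, and in colitis Bnip3 is filled at -1.13 in the Il1f9 line and at 0.75 in the line labelled Il1f5.

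The KO effects of the lines in colitis were tested against each other; this contrast and the KO and line contrasts above share their libraries, and none is evidence apart from the others. For 11 of the 35 entries (31.4%) the change was more negative in the Il1f9 line than in the line labelled Il1f5 and for 0 it was more positive by edgeR, beside 24.8% of 18299 genes (12.0% more positive, 12.8% more negative). The difference of log2 fold changes was -2.40 ± 0.37 for Slc16a3 (adjusted p = 0.00342), -2.03 ± 0.39 for Ankrd37 (0.00478), -1.88 ± 0.23 for Bnip3 (0.000662) and -1.86 ± 0.23 for Pfkfb3 (0.00085). P4ha2, Adm, Egln3, Epas1, Ero1l, Ndrg1 and P4ha1 made up the rest. For Adm the libraries were 8.04 and 11.3 CPM in Il1f9 KO and 13.6 and 18.2 CPM in Il1f9 WT colitis, and 9.76, 19.0 and 12.0 CPM in colitis labelled Il1f5 KO and 10.4, 8.79 and 11.0 CPM in colitis labelled Il1f5 WT. So 7 of the 11 are hypoxia-induced genes, and Hk2 and Hif1a, lower in the libraries labelled KO of either line, were not among them. All these differences take the direction of the labelled Il1f5 effect, which the Il1f5 counts go against. With that effect turned round, an alternative added after seeing the data, 4 members were more positive and 4 more negative, beside 18.5% of all genes (8.75% more positive, 9.74% more negative), and 3 of the 8 were among the 11. The difference then was -0.65 ± 0.37 for Slc16a3, 0.96 ± 0.38 for Ankrd37 and -0.38 ± 0.22 for Bnip3, without a call, and -1.57 ± 0.23 for Pfkfb3 with one. Hk2 (-1.80 ± 0.19) and Hif1a (-1.23 ± 0.15) then had the smallest p-values of the members. The call of Adm was lost without any 1 of 7 libraries (labelled Il1f5 WT 1, WT 2, WT 3 or KO 2, or Il1f9 WT 2, KO 1 or KO 2). That of P4ha1 was lost without Il1f9 WT 2 or KO 2 and that of Ndrg1 without Il1f9 KO 2. The number of all genes called shifted between such fits too. The same test over the other lists gave 13 more negative and 1 more positive of 26 hypoxia-induced genes (Hmox1 -2.58 ± 0.33, Ddit4 -1.01 ± 0.14, and Higd1a 0.63 ± 0.20), 5 and 5 of 27 glucose genes, 0 and 7 of 13 pyruvate entry genes, and 3 and 6 of 17 HIF machinery genes.

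In tumours no member was called between genotypes. In the Il1f9 line edgeR called 0 of 35 entries, beside 3 of all 17859 genes (0.0168%: 0.00560% higher, 0.0112% lower). At an unadjusted p under 0.05, 1 member was higher and 7 were lower, and DESeq2's Wald test called 0. The share of all genes at that unadjusted threshold is not given here, so this count has no background. Bnip3 had 92.9 and 115 CPM in Il1f9 KO tumours, against 167 and 164 CPM in Il1f9 WT tumours (log2 fold change -0.70 ± 0.16, adjusted p = 0.348). P4ha2 had 19.9 and 18.3 CPM in Il1f9 KO tumours, against 34.7 and 31.5 CPM in Il1f9 WT tumours (log2 fold change -0.81 ± 0.19, adjusted p = 0.348), and Hif1a had 292 and 333 CPM in Il1f9 KO tumours, against 445 and 498 CPM in Il1f9 WT tumours (log2 fold change -0.61 ± 0.16, adjusted p = 0.369). These libraries did not overlap between the genotypes, though the share of all genes without overlap is not given here. The median over the members was -0.29. The neutrophil markers summed to 984 and 1693 CPM in Il1f9 KO tumours and to 3948 and 1765 CPM in Il1f9 WT tumours, and erythrocyte markers to 15.2 and 126 CPM in Il1f9 KO tumours and 677 and 282 CPM in Il1f9 WT tumours, without a call of any of the 6 and 5 markers. The 2 Il1f9 KO tumours also stood apart from each other: smooth muscle markers summed to 80.3 and 866 CPM, and the chi-square per gene between the libraries was 95.5, against 6.19 to 39.1 for the pairs within the other groups. The part of these in the member values was not tested. Without a filter on low counts 6 members were called, all lower, and the share of all genes called in that fit is not given here.

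In tumours labelled Il1f5 KO edgeR called 0 of 35 entries as well, beside 5 of 17859 genes (0.0280%: 0.0112% higher, 0.0168% lower). At an unadjusted p under 0.05, 13 members were higher and 0 lower, without the share of all genes at that threshold to set beside them. DESeq2's Wald test called 9, a fit of all 18 libraries 13, a fit without the filter 11 and a fit of the 2 groups alone 5, each of them higher. The shares of all genes called in those fits are not given here either, so these counts have no background. Slc16a3 had 267 and 211 CPM in tumours labelled Il1f5 KO, against 90.2 and 104 CPM in tumours labelled Il1f5 WT (log2 fold change 1.29 ± 0.22, adjusted p = 0.0693). Pfkl had 262 and 196 CPM in tumours labelled Il1f5 KO, against 101 and 135 CPM in tumours labelled Il1f5 WT (log2 fold change 0.94 ± 0.19, adjusted p = 0.0773). Pkm had 2132 and 1643 CPM in tumours labelled Il1f5 KO, against 1113 and 1277 CPM in tumours labelled Il1f5 WT (log2 fold change 0.65 ± 0.19, adjusted p = 0.0998). The libraries of these genes did not overlap, again without the share of all genes to set beside this. The median over the members was 0.35. Slc2a1, at 120.5 and 122 CPM in tumours labelled Il1f5 KO and 111 and 114 CPM in tumours labelled Il1f5 WT, was close between the groups (log2 fold change 0.10 ± 0.18, adjusted p = 0.77).

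The difference between the lines' KO effects in tumours was called for 0 entries by edgeR, beside 14 of 17859 genes (0.0784%). At an unadjusted p under 0.05, 15 members were more negative in the Il1f9 line and 0 more positive. DESeq2's Wald test called 5, a fit without the filter 12 and a fit of all 18 libraries 7, each more negative, without a share of all genes beside these counts. These signs follow the labels of the Il1f5 line too. With its effect turned round edgeR called 0 as well, with 4 members more negative and 8 more positive at an unadjusted p under 0.05. The share of all genes at that threshold is not given here for either direction of the effect. Of the 4 other pathway lists 0 genes were called in either tumour genotype contrast. Their counts at an unadjusted p under 0.05 were 3 of 26 glucose, 0 of 13 pyruvate entry, 1 of 17 HIF machinery and 3 of 26 hypoxia-induced genes in the Il1f9 line, and 5, 1, 6 and 7 in the line labelled Il1f5.

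Finally the KO effect in tumours was set against that in colitis within a line, from the same libraries as above. In the line labelled Il1f5, 8 entries had a more positive change in tumours and 1 a more negative change (25.7%), beside 18.1% of 19514 genes (10.8% more positive, 7.23% more negative). They were 6 glycolysis enzymes, Pgam1 (1.18 ± 0.21, adjusted p = 0.00376), Tpi1 (0.94 ± 0.23), Pfkl (0.82 ± 0.21), Pkm (0.81 ± 0.20), Eno1 (0.81 ± 0.22) and Pgk1 (0.79 ± 0.24), with Hif1a (0.62 ± 0.18) and P4ha1 (0.60 ± 0.16), and Ankrd37 on the other side (-1.75 ± 0.50). Pgam1 had 309.8 and 245 CPM in tumours labelled Il1f5 KO and 143 and 166 CPM in tumours labelled Il1f5 WT, and 119, 128 and 156 CPM in colitis labelled Il1f5 KO and 177, 161 and 174 CPM in colitis labelled Il1f5 WT. Its libraries labelled KO lay above those labelled WT in tumours and below them in colitis. The count was 5 without colitis labelled Il1f5 KO 1, and lower still without tumour labelled Il1f5 WT 1 or KO 1. The number of all genes called shifted between such fits too. Pgam1 was called without any 1 library.

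In the Il1f9 line Epas1 alone was called (2.86% of the entries), beside 2.47% of 19514 genes (1.65% more positive, 0.820% more negative). Epas1 had 44.2 and 35.9 CPM in Il1f9 KO tumours and 35.3 and 36.8 CPM in Il1f9 WT tumours, and 125 and 119.7 CPM in Il1f9 KO colitis and 185 and 209 CPM in Il1f9 WT colitis (difference 0.84 ± 0.18, adjusted p = 0.0264). Its tumour genotypes overlapped and its colitis genotypes did not. The call was lost without colitis Il1f9 WT 2, KO 1 or KO 2, without tumour Il1f9 WT 1 or WT 2, and in a fit of the 4 groups of the line alone, where 0 members and 1 of all genes were called. Of the other lists, 5 glucose genes were more positive and 3 more negative in the line labelled Il1f5, with 3 and 0 pyruvate entry, 6 and 0 HIF machinery and 2 and 3 hypoxia-induced genes. In the Il1f9 line these counts were 1 and 0, 0 and 1, 1 and 1, and 0 and 0 by edgeR.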

How the data were processed

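RNA was counted per gene by the authors, and their raw counts and FPKM values were deposited in 3 tables, for colitis and for the tumours of each line. Per the submitters' processing notes, the tools were Trim Galore 0.6.4, HISAT2 2.0.5 and featureCounts 2.0.0; which genome build they used is not given there. Groups follow the labels. Counts were fitted with edgeR 4.0.16 in R 4.3.3 (filterByExpr, TMM, robust quasi-likelihood F tests on group means, Benjamini-Hochberg over all genes tested): genotype and line contrasts and their differences over the libraries of a tissue, and tissue contrasts over all 18. FPKM served to compare levels between genes. Every member could be named, with values in each library where a genotype, line or difference contrast called it; other lists are given by counts and the 2 called genes of smallest p in each direction. The members and lists were chosen with earlier results of these data known. Alternatives were DESeq2 1.42.0, other scaling, no filter, a fold threshold, a replicate block, other sets of libraries and leaving out each library. Gene positions come from an annotation of GRCm38.p6.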

Additional observations from a re-analysis of the deposited data

Results flagged for a closer look

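In colitis, 11 members were picked out because the test of the difference itself separated the KO effect of the Il1f9 line from that of the line labelled Il1f5. The difference of log2 fold changes, with its standard error, was -1.86 ± 0.23 for Pfkfb3, -2.40 ± 0.37 for Slc16a3, -1.88 ± 0.23 for Bnip3, -0.55 ± 0.14 for P4ha1, -1.31 ± 0.24 for P4ha2 and -0.86 ± 0.15 for Ero1l. It was -1.14 ± 0.38 for Adm, -0.73 ± 0.18 for Ndrg1, -2.03 ± 0.39 for Ankrd37, -1.08 ± 0.23 for Egln3 and -0.97 ± 0.15 for Epas1. With the labelled Il1f5 effect, which the Il1f5 counts go against, turned round, these were -1.57 for Pfkfb3, -0.65 for Slc16a3, -0.38 for Bnip3, -0.81 for P4ha1, -0.24 for P4ha2, -0.36 for Ero1l, -0.28 for Adm, 0.71 for Ndrg1, 0.96 for Ankrd37, -0.0070 for Egln3 and -0.40 for Epas1, and Pfkfb3, P4ha1 and Ndrg1 were called. With the labels as given, the edgeR adjusted p ran from 0.000662 (Bnip3) to 0.0487 (Adm).

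In the line labelled Il1f5, 9 members were picked out because the KO effect in tumours differed from that in colitis. The difference was 0.82 ± 0.21 for Pfkl, 0.94 ± 0.23 for Tpi1, 0.79 ± 0.24 for Pgk1, 1.18 ± 0.21 for Pgam1 and 0.81 ± 0.22 for Eno1. It was 0.81 ± 0.20 for Pkm, 0.60 ± 0.16 for P4ha1, -1.75 ± 0.50 for Ankrd37 and 0.62 ± 0.18 for Hif1a. The edgeR adjusted p ran from 0.00376 (Pgam1) to 0.035 (Pgk1). In the Il1f9 line the same test picked out Epas1, at 0.84 ± 0.18 (adjusted p = 0.0264). The directions of the line labelled Il1f5 follow labels that its Il1f5 counts go against, and turning that effect round would turn the sign of each of the 9 differences.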

How the results depend on the processing

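When a log2 fold change of 1 or more in size was also required, the members called were 1 for colitis labelled Il1f5 KO against WT, 4 for colitis Il1f9 KO against WT, 8 for tumours against colitis, 1 for the colitis lines, 7 for the colitis difference, and 2 and 0 for tumours minus colitis in the lines labelled Il1f5 and Il1f9. In tumours labelled Il1f5 KO, where edgeR called 0, DESeq2's Wald test called 9, no filter 11, all 18 libraries 13 and the 2 groups alone 5. In Il1f9 KO tumours no filter gave 6. For the tumour difference DESeq2 gave 5, no filter 12 and all 18 libraries 7. For tumours minus colitis in the Il1f9 line DESeq2 gave 2, no filter 5 and the 4 groups alone 0. The shares of all genes called under these settings are not given here, and the cause of these shifts was not tested.

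KO libraries in place of WT, an alternative chosen after seeing the data, gave 11 members for the colitis lines and 14 for the tumour lines. It reversed Slc16a3 (-1.18) and Bnip3 (-1.16) in colitis and Pfkl (-0.0795), Egln1 (-0.35) and P4ha2 (-0.24) in tumours, and KO libraries alone reversed Hk2 between the tissues (0.12). The labelled Il1f5 effect turned round, also chosen after seeing the data, gave 8 members for the colitis difference, with Ndrg1 (0.71) and Ankrd37 (0.96) reversed, and 0 for the tumour difference. Over 98 called changes of single members and 1937 alternatives, 1679 kept direction and call, 250 kept direction and lost the call, and 8 reversed.

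Leaving out each library in turn, the members called ran from 6 to 13 for colitis labelled Il1f5 KO, 7 to 13 for colitis Il1f9 KO, 0 to 6 for tumours labelled Il1f5 KO, 0 to 0 for tumours Il1f9 KO, 26 to 30 for the tissues, 0 to 5 for the colitis lines, 17 to 27 for the tumour lines, 8 to 18 for the colitis difference, 0 to 3 for the tumour difference, and 1 to 11 and 0 to 1 for tumours minus colitis in the lines labelled Il1f5 and Il1f9. With 1 library left in a group, it is assumed to vary like the other groups. The number of all genes called also shifted between these fits in every contrast, so the member counts are not results about the members alone.

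Same-numbered libraries of the genotypes compared did not deviate together (correlations from -0.206 to 0.000955). Over all groups, 3 of 25 same-numbered pairs within a tissue (-0.285 to 0.134) and 1 of 32 across tissues (-0.180 to 0.107) had a correlation over 0.1. Of the pairs of unlike number, 12 of 36 and 9 of 48 did. In a group of 2 libraries the deviations mirror each other, so such pairs repeat same-numbered values with the sign turned. The counts of unlike number are therefore no separate background. The numbers were not taken to pair the libraries. With the replicate number as a block, the members called were 8 for colitis labelled Il1f5 KO, 9 for colitis Il1f9 KO, 1 for the colitis lines and 11 for the colitis difference. They were 25 for the tumour lines, 26 for the tissues, 8 and 1 for tumours minus colitis, and 0 for the tumour genotype contrasts and their difference. The shares of all genes called with the block are not given here.

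Groups of 2 or 3 libraries, the Il1f5 label that the counts go against, sequence shared with other genes (Pgk1, Bnip3, Pgam1), unstranded reads, and lines and tissues in separate tables limit these results.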
